A study of Mus musculus with 2 samples.

Results

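Immediate early and activity response genes are a set of 39 genes, taken from a list of gene symbols of the AP-1, EGR, KLF and DUSP families and other genes induced early after a stimulus. All 39 were matched to a probe set, among 19936 named nuclear genes in all. The platform annotation names 37 of them by the symbol used here and lists Cyr61 and Ctgf under their newer symbols Ccn1 and Ccn2. Gastrocnemius muscle, a mixed and mainly fast muscle of the calf, was compared between PGC-1β(i)skm-/- mutant and control mice, with 1 array per genotype and RNA of 3 mice pooled on each array. PGC-1β(i)skm-/- mice carried floxed Ppargc1b alleles and an HSA-Cre-ERT2 transgene, whose human skeletal actin elements direct a tamoxifen-dependent recombinase to myofibres, so that exon 5 of Ppargc1b is lost there and not in the other cells of the muscle. Control mice were littermates with the same floxed alleles and no transgene, although the sample labels call them wild-type. All mice were C57BL/6 males. Both genotypes were injected with tamoxifen at the age of 7 weeks, at 1 mg on each of 5 days, and muscle was taken at 8 weeks, 1 week after the last injection. The transgene itself was present in mutants only, so that its effect and that of the deletion cannot be told apart.

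Immediate early genes are transcribed within minutes of a stimulus such as a growth factor, nerve activity or stretch, from kinases that act on factors already present in the cell, and most of their transcripts and proteins are short-lived. The transcription factors among them, AP-1 dimers of Fos and Jun proteins, EGR and KLF zinc finger proteins, switch on later genes. Others among them, the DUSP phosphatases and SOCS proteins, shut the signal down again. In skeletal muscle, contraction and exercise are well known to induce several of these genes, and the handling of the tissue can do so too.

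The values are log2 signals, so that a difference of 1 is a doubling, and a ratio always has PGC-1β(i)skm-/- muscle on top and control muscle below. A gene counted as higher at a ratio of 1.2 or more and as lower at 0.8 or less. With 1 array per genotype there is no error from mice and no test, and how precise a value is cannot be told beyond that there are 2 arrays. Ppargc1b itself had log2 signals of 7.06 in PGC-1β(i)skm-/- and 7.87 in control muscle, a ratio of 0.569, with a probe set that is not limited to the deleted exon. The median signal was 6.02 on the PGC-1β(i)skm-/- array and 6.00 on the control array. The 12 myofibre markers, contractile and metabolic genes of fast fibres, averaged 13.39 on both arrays, so that transcripts of the labelled tissue were plainly present.

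Of the 39 early response genes, 2 were higher in the mutant, Klf4 and Dusp1, and 1 was lower, Gadd45g. With a loess curve of difference on signal subtracted, Gadd45g was at a ratio of 0.801 and no longer counted as lower, and a filter at a mean log2 signal of 7 left out Klf4, which lies just under it. The 2 higher and 1 lower genes are 5.13% and 2.56% of the genes, whereas 1.64% of all named nuclear genes were higher and 0.652% were lower. The median log2 difference of the 39 genes was 0.02, against -0.00055 over all genes, and 25 of 39 genes (64.1%) had a difference above 0, against 49.6% of all genes. The differences were spread with a standard deviation of 0.17 over the 39 genes, compared with 0.12 over all genes. The quartiles of the set were -0.07 and 0.14, and the 3 genes past a threshold lay outside them at either end.

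**Figure D1:**
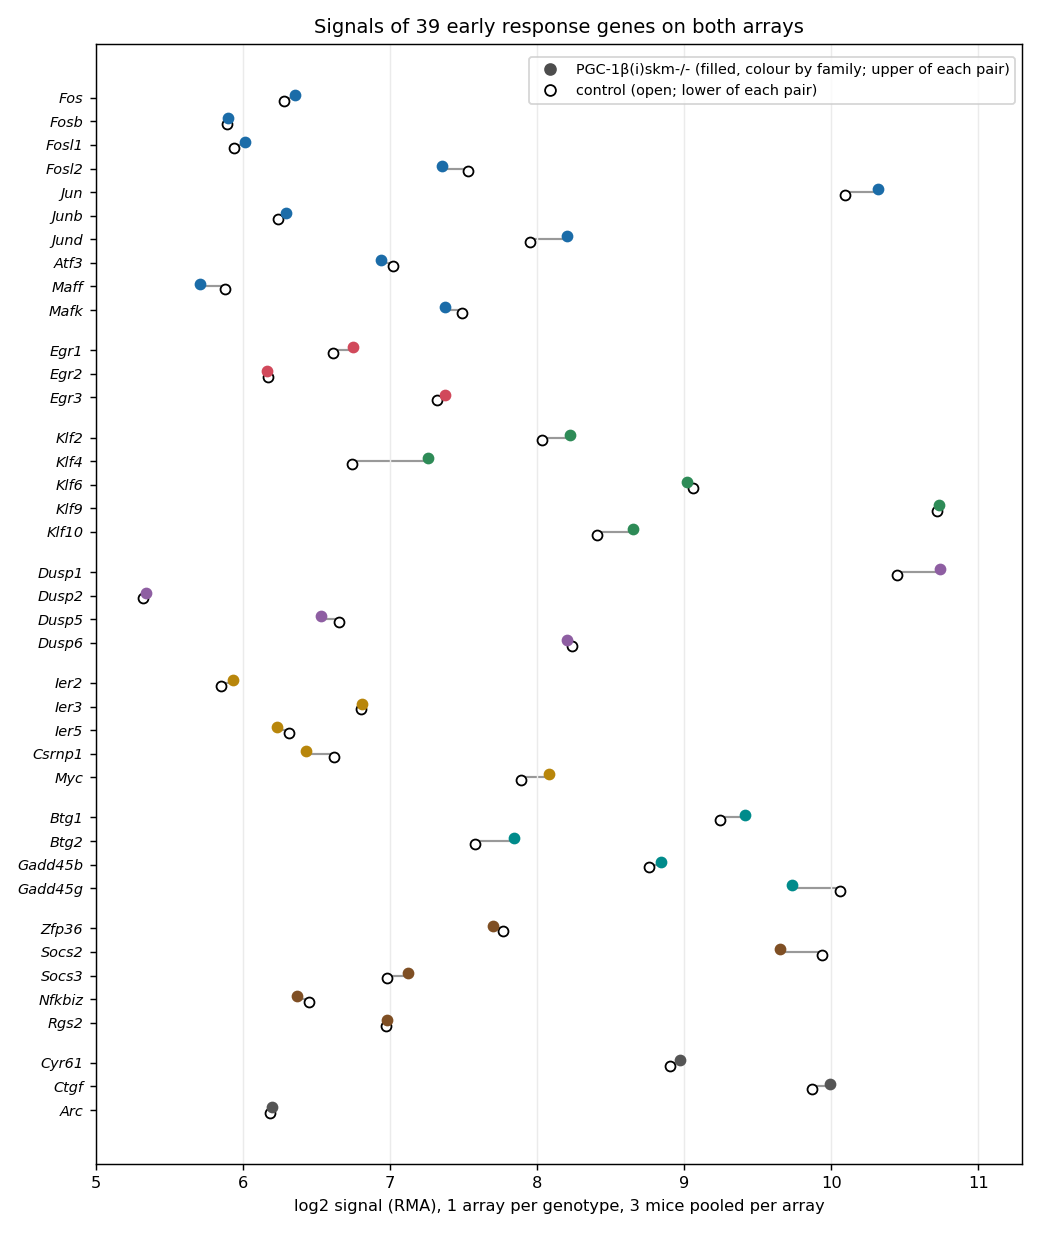
Log2 signal (horizontal axis) of each of the 39 genes (rows, grouped by family) on the PGC-1β(i)skm-/- array (filled) and on the control array (open), with 1 array per genotype and no error bars. The widest gap is that of Klf4, at 7.26 and 6.74, and the widest in the other direction that of Gadd45g, at 9.73 and 10.06.

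Klf4, a zinc finger transcription factor of endothelium, epithelia and monocytes that is also induced by serum and shear stress, had log2 signals of 7.26 in PGC-1β(i)skm-/- and 6.74 in control muscle. Its log2 difference was 0.52, a ratio of 1.43, and it ranked 7 from the highest of 19936 genes. Dusp1, a nuclear phosphatase that inactivates the MAP kinases p38, JNK and ERK, had log2 signals of 10.74 and 10.45 in PGC-1β(i)skm-/- and control muscle, a difference of 0.29 and a ratio of 1.22 at rank 243. These are a dim to moderate and a bright probe set, and both were higher on the mutant array. Gadd45g, a small protein that binds stress kinases and cell cycle regulators, had log2 signals of 9.73 in PGC-1β(i)skm-/- and 10.06 in control muscle. Its difference of -0.34 was a ratio of 0.792 and ranked 109 from the lowest.

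Several further genes lay close to these thresholds. Btg2, an antiproliferative protein that recruits the deadenylase complex to transcripts, had log2 signals of 7.84 in PGC-1β(i)skm-/- and 7.58 in control muscle, and its ratio of 1.1995 was just under 1.2. Jund had a ratio of 1.19, Klf10 of 1.18 and Jun of 1.17. On the other side, Socs2, an inhibitor of growth hormone signalling, had log2 signals of 9.65 and 9.94 in PGC-1β(i)skm-/- and control muscle, a ratio of 0.819. Socs2 has another probe set, at 7.36 and 7.56, with a difference of -0.20 beside -0.29 for the brighter one, so that both ran the same way.

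Promoter sequence was set beside these values, because CRE and CArG boxes are the elements through which CREB and serum response factor are known to switch on early genes. RefSeq promoters of build GRCm38.p6 were available for 29 of the 39 genes, with 38 start sites, and the 250 bases before each start were searched on both strands. The CRE was searched as TGACGTCA, the CArG box by its usual pattern, the AP-1 site as TGAGTCA and the EGR site as GCGNGGGCG, and no match overlapped a match to another of these motifs. Both elements are shown where they occur at their full length, with the motif in capitals. Variant forms and elements further from the start were not searched for, so a gene without a match, such as Fos, may still hold them. The CRE matched in Dusp1 (chr17:26508473-26508722, minus strand), Btg2 (chr1:134079156-134079405, minus strand) and Maff (chr15:79347270-79347519, plus strand, the start site with the match), and the bases before their starts read 5′ to 3′ as follows.
Dusp1: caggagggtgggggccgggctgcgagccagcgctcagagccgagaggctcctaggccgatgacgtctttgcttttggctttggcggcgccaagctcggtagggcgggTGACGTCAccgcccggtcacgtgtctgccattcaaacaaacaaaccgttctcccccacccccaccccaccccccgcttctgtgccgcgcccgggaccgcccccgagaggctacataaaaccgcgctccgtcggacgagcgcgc
Btg2: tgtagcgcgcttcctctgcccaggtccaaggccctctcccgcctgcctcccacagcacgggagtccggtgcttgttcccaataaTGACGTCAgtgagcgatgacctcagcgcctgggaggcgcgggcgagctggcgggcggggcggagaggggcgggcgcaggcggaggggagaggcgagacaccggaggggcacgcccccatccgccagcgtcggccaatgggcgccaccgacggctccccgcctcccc
Maff: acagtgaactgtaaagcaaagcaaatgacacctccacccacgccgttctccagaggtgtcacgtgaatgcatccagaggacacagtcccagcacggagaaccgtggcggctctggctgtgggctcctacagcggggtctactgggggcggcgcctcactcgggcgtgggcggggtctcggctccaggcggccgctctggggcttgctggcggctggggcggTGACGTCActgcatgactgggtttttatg

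Dusp1 and Btg2 had differences of 0.29 and 0.26, and Maff, a small Maf protein, -0.17. The probe set of Maff was dim, at 5.71 in PGC-1β(i)skm-/- and 5.88 in control muscle, and its CRE lies at 1 of 3 start sites. The 3 genes with a full CRE thus differed in sign. The CRE was at 3 of the 38 start sites of the early response genes (7.89%). Among all 32851 promoters, 1.55% held this CRE in a window of the same length, and 2.02% of those of genes on the arrays. The CArG box matched in Dusp5 (chr19:53528895-53529144, plus strand, with 2 adjoining boxes), Zfp36 (chr7:28379229-28379478, minus strand) and Egr2 (chr10:67537316-67537565, plus strand, 1 of the 4 start sites with a match among its 5), whose sequences are these.
Dusp5: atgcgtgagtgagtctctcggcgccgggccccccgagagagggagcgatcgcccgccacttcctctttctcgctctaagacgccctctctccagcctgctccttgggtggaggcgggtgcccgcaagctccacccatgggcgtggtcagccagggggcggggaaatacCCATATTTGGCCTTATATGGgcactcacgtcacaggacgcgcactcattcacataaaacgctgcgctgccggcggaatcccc
Zfp36: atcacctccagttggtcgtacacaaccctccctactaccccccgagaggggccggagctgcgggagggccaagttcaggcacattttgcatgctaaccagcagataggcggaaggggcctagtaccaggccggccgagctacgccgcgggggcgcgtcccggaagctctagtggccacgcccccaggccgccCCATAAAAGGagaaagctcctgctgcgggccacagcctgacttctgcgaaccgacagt
Egr2: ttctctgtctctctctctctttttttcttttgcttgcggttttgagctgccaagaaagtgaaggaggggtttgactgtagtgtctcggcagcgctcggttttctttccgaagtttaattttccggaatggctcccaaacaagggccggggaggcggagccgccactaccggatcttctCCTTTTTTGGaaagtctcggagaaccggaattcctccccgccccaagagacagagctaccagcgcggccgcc

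None of these 3 genes had a higher signal in mutant muscle, with differences of -0.12 for Dusp5, -0.07 for Zfp36 and -0.01 for Egr2. A CArG box was present at 6 of the 38 start sites (15.8%), 4 of them those of Egr2. It was present in 1.47% of all promoters of this length and in 1.26% of those of genes on the arrays. The EGR site matched in 12 of the 29 genes, at 12 of their 38 start sites (31.6%), against 4.70% of all start sites and 6.90% of those of genes on the arrays. These windows were rich in G and C, with a median of 64.2% over the start sites of the early response genes, 56.8% over those of genes on the arrays and 52.4% over all. Klf4, the gene with the highest difference, had 2 EGR sites in the minus orientation and no CRE or CArG box in the 250 bases before its start (chr4:55532476-55532725, minus strand), shown with the EGR sites in capitals as they read on the strand of the gene.
Klf4: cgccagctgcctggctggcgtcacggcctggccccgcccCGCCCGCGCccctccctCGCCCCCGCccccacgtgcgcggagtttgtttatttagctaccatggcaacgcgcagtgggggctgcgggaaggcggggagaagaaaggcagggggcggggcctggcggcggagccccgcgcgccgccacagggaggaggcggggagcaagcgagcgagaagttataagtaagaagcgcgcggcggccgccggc

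The 12 genes with an EGR site had differences from -0.18 for Fosl2 to 0.52 for Klf4, on both sides of 0. The AP-1 site was found in Csrnp1 alone, at 1 of the 38 start sites (2.63%), against 4.46% of all promoters and 4.03% of those of genes on the arrays. A match to these letters is a description of the sequence and not a measured binding site, and 10 of the 39 genes, Klf10, Egr1 and Myc among them, were not analysed here for motifs.

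**Figure D2:**
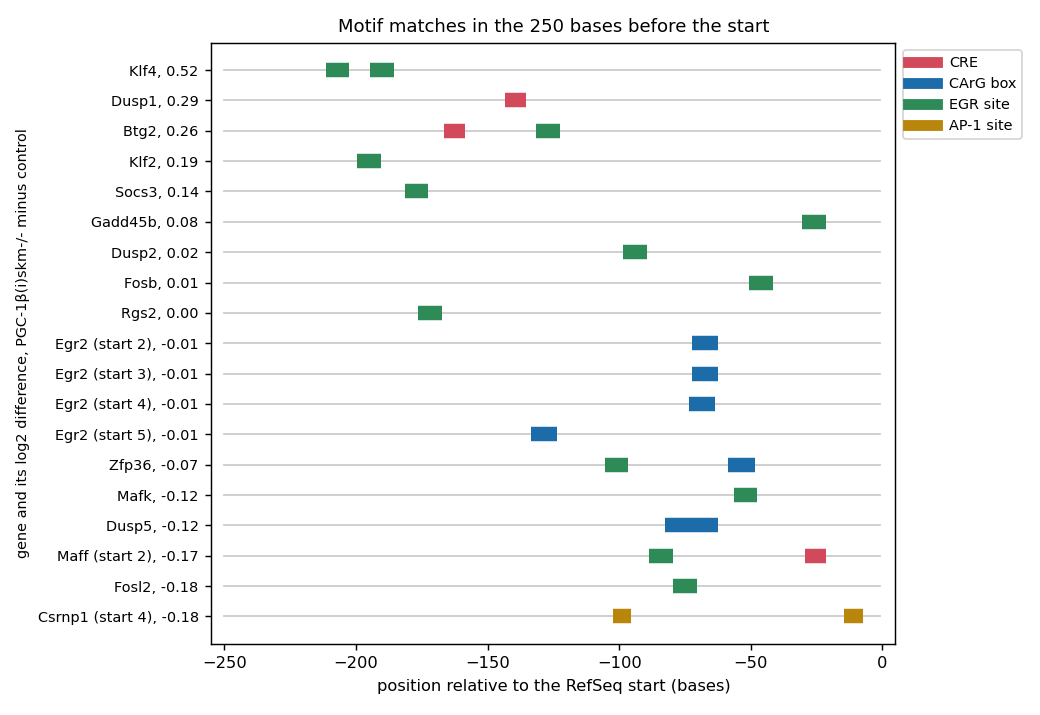
Position of motif matches (horizontal axis, bases relative to the RefSeq start) in each start site that held a match (rows, each with the gene's difference of mutant minus control log2 signal, from highest to lowest). The CRE is in the rows of Dusp1 and Btg2, at 0.29 and 0.26, and of Maff, at -0.17, and CArG boxes lie in rows between -0.01 and -0.12.

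AP-1 is a dimer of a Jun protein with a Fos, Jun or ATF partner. The Jun genes were all above 0, with a median difference of 0.23. Jun, the partner with the strongest transactivation, had log2 signals of 10.32 in PGC-1β(i)skm-/- and 10.09 in control muscle, a difference of 0.23 at rank 538. Jund, which is more constantly expressed and slows growth, had 8.20 and 7.95, a difference of 0.25 at rank 390. Junb, an antagonist of Jun in many promoters, had 6.29 and 6.24, a difference of 0.05. Of the Fos genes, Fos and Fosl1 had differences of 0.07 and Fosb of 0.01, all at log2 signals near 6. Fosl2, the fourth Fos protein, was on the other side at -0.18, with log2 signals of 7.35 in PGC-1β(i)skm-/- and 7.53 in control muscle. The other bZIP factors of the set were also below 0. Atf3, a stress-induced repressor, had a difference of -0.08, and the small Maf proteins Maff and Mafk, which lack an activation domain, had -0.17 and -0.12. Over all 10 bZIP genes the median was 0.03 and none was past a ratio of 0.8 or 1.2.

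EGR proteins bind GC-rich sites through 3 zinc fingers. Egr1, the member induced by most stimuli, had log2 signals of 6.75 in PGC-1β(i)skm-/- and 6.61 in control muscle, a difference of 0.15. Egr3, required for muscle spindles, had 7.37 and 7.32, a difference of 0.05, and Egr2, required for myelination by Schwann cells, had 6.16 and 6.17. The 3 genes thus lay between -0.01 and 0.15.

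The KLF factors had the highest median of the 8 families, 0.19, with 4 of 5 genes above 0. That place was lost when a filter at a mean log2 signal of 7 left out Klf4. Klf2, a flow-induced factor of endothelium and quiescent T cells, had log2 signals of 8.22 in PGC-1β(i)skm-/- and 8.03 in control muscle, a difference of 0.19. Klf10, induced by TGF-β, had 8.65 and 8.41, a difference of 0.24 at rank 496. Klf6 and Klf9 had differences of -0.04 and 0.01 at log2 signals of 9.02 and 9.06 and of 10.73 and 10.72 in PGC-1β(i)skm-/- and control muscle. Klf9 is a target of glucocorticoids and thyroid hormone. Klf4 and Klf2 are known from endothelium, and the 10 endothelial markers had a median of 0.04, with 8 above 0 and none past a threshold. Their mean log2 signal was 8.74 on the PGC-1β(i)skm-/- and 8.70 on the control array.

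Among the DUSP phosphatases, Dusp1 alone was past a threshold. Dusp6, a cytoplasmic phosphatase selective for ERK, had log2 signals of 8.20 in PGC-1β(i)skm-/- and 8.24 in control muscle, a difference of -0.04. Dusp5, a nuclear phosphatase selective for ERK, had 6.53 and 6.65, a difference of -0.12. Dusp2, known from lymphoid and myeloid cells, had a dim probe set at 5.34 and 5.32. The family median was -0.01.

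**Figure D3:**
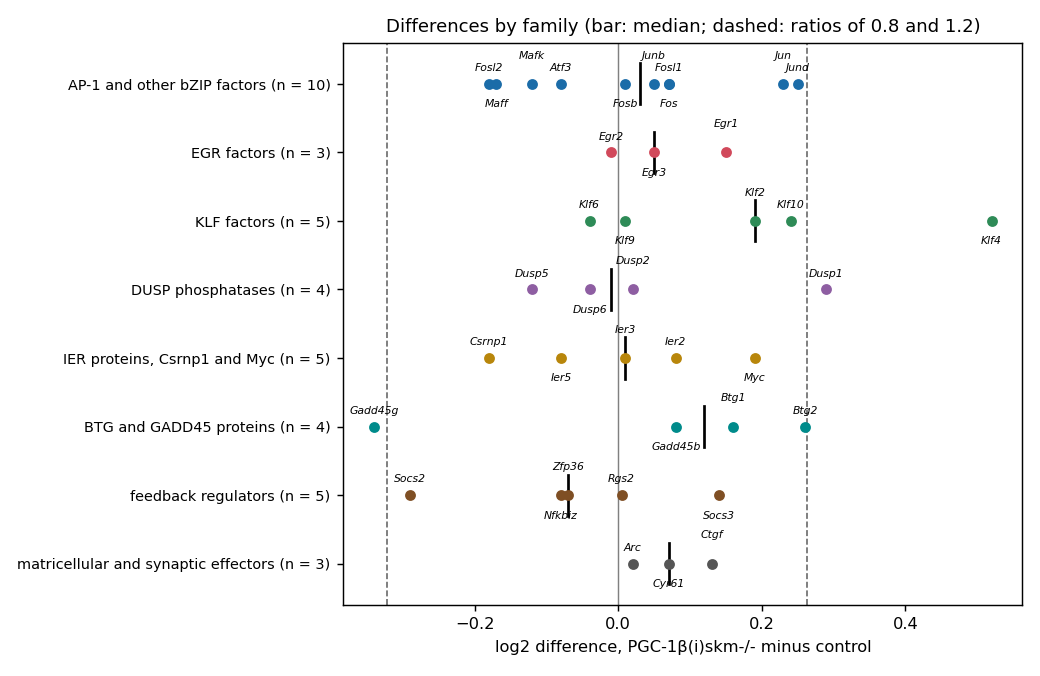
Difference of mutant minus control log2 signal (horizontal axis) for each gene in the 8 families (rows, with the number of genes), where a black bar is the family median and ratios of 0.8 and 1.2 are dashed. Medians run from -0.07 for the feedback regulators to 0.19 for the KLF factors, and Klf4, Dusp1 and Gadd45g lie outside the dashed lines.

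Of the IER proteins, small nuclear or membrane proteins named for their immediate early induction, Ier2 had a difference of 0.08, Ier3 of 0.01 and Ier5 of -0.08, at log2 signals from 5.85 to 6.81. Csrnp1, a nuclear protein induced by axin, had log2 signals of 6.43 in PGC-1β(i)skm-/- and 6.62 in control muscle, a difference of -0.18. Myc, the bHLH factor of growth and ribosome synthesis, had 8.08 and 7.89, a difference of 0.19. The family was thus spread around its median of 0.01, with Myc at its upper and Csrnp1 at its lower end.

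The BTG and GADD45 proteins restrain the cell cycle, and they held both a gene near the upper threshold and the lowest gene of the set. Btg1, the close relative of Btg2, had log2 signals of 9.41 in PGC-1β(i)skm-/- and 9.24 in control muscle, a difference of 0.16. Gadd45b, induced by NF-κB and TGF-β, had 8.84 and 8.76, a difference of 0.08. Its paralogue Gadd45g, at -0.34, lay on the opposite side. The 4 genes had a standard deviation of 0.26, the widest of the 8 families.

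The feedback regulators had the lowest median, -0.07. Socs3, which blocks the receptor of IL-6 and is a target of STAT3, had log2 signals of 7.12 in PGC-1β(i)skm-/- and 6.98 in control muscle, a difference of 0.14, and 0.15 in its other probe set. The related Socs2 thus differed in sign from Socs3. Zfp36, tristetraprolin, which brings about the decay of AU-rich transcripts, had a difference of -0.07, and Nfkbiz, a nuclear IκB protein needed for IL-6 expression, -0.08. Rgs2, which turns off Gq-coupled receptors, had log2 signals of 6.98 and 6.97 in PGC-1β(i)skm-/- and control muscle. Of the matricellular proteins, which are secreted and are targets of YAP and of mechanical load, Ctgf had 9.99 and 9.87, a difference of 0.13, and Cyr61 8.97 and 8.90, a difference of 0.07. Arc, known for synaptic plasticity, had 6.20 and 6.18.

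The sign of the differences was also counted by brightness. At a mean log2 signal of 8 or more, 10 of 14 early response genes (71.4%) had a difference above 0, with a median of 0.10, whereas 41.5% of all genes of this signal did, with a median of -0.02. Below a mean of 7, 11 of 18 genes (61.1%) were above 0 with a median of 0.01, beside 53.8% of all genes of such signal, also with a median of 0.01. Across the 39 genes the difference and the mean signal had a Pearson correlation of 0.13, against -0.09 across all genes, as a description of genes that share 2 arrays.

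**Figure D4:**
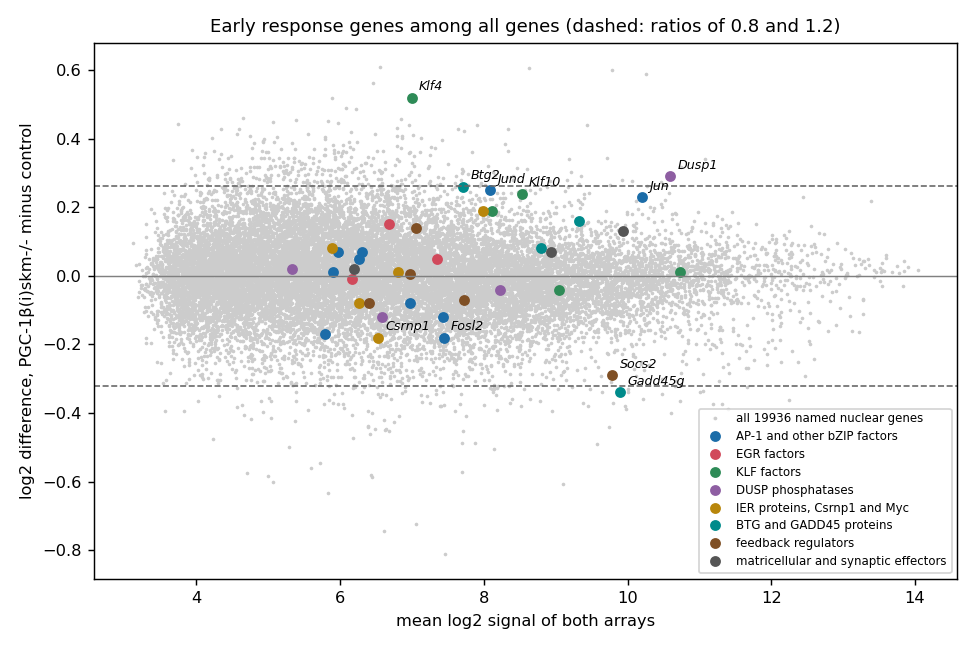
Mean log2 signal of both arrays (horizontal axis) and difference of mutant minus control log2 signal (vertical axis) for all 19936 named nuclear genes (grey) and the 39 early response genes (coloured by family), with dashed lines at ratios of 0.8 and 1.2. Klf4 at 0.52, Dusp1 at 0.29 and Gadd45g at -0.34 lie outside the dashed lines.

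Other genes of the same response, written as a separate list with earlier results of these data known, had a similar centre and spread. Of 40 measured genes, 2 were higher and 1 was lower, with a median of 0.02. Thbs1, a matrix glycoprotein released by platelets and fibroblasts, had log2 signals of 8.48 in PGC-1β(i)skm-/- and 8.10 in control muscle, a ratio of 1.31. Bcl3, a coregulator of NF-κB, had 6.56 and 6.21, a ratio of 1.27, and Nr4a3, an exercise-induced orphan nuclear receptor of muscle, had 6.19 and 6.58, a ratio of 0.761. Tiparp, an ADP-ribosyltransferase induced through the aryl hydrocarbon receptor, followed among the lower ones, at -0.18.

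The wider families gave no gene past a threshold. Of 15 other KLF and SP factors, 11 were above 0 with a median of 0.08, from -0.07 for Sp4 and -0.06 for Klf12 to 0.20 for Klf8 and 0.24 for Klf3. Other DUSP phosphatases had a median of -0.05, with 8 of 19 above 0, from -0.16 for Dusp15 and -0.13 for Dusp27 to 0.09 for Dusp13 and 0.16 for Dusp10. Other bZIP factors had a median of 0.02, with Nfe2l2, the regulator of anti-oxidant genes, at 0.24, Mafg at 0.12, Creb1 at -0.08 and Crem at -0.09. Genes that act upstream, MAP kinases, their substrate kinases and the factors that bind CRE, CArG and related elements, had 21 of 31 below 0 and a median of -0.04. Crtc1, a CREB coactivator, was at 0.21, Rps6ka3, a kinase downstream of ERK, at 0.10, Mapk8, encoding a JNK kinase, at -0.12 and Mapk11, encoding a p38 kinase, at -0.31.

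Glucocorticoids and heat also induce some of these genes. Of 14 glucocorticoid response genes, 8 were above 0, with a median of 0.04. Ddit4, an mTOR inhibitor induced by stress, was lower with log2 signals of 8.87 in PGC-1β(i)skm-/- and 9.20 in control muscle, a ratio of 0.796, whereas Foxo3 was at 0.19, Mt1 at 0.13 and Cebpd at -0.14. Of 9 inducible heat shock genes, Hspb1 was higher with a ratio of 1.27, Hsph1 was at 0.14, and the mitochondrial chaperonins Hspd1 and Hspe1 were at -0.15 and -0.09. The median of this list was 0.07.

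Some markers of other cells of the muscle were higher on the array on which Klf4 and Dusp1 were higher. All 12 connective tissue markers had a difference above 0, with a median of 0.21 and mean log2 signals of 9.48 on the PGC-1β(i)skm-/- and 9.27 on the control array. Of these, Fmod (0.32), Tnmd (0.28), Mfap5 (0.28) and Thbs4 (0.27) were past a ratio of 1.2, 33.3% of the list against 1.64% of all genes. All 12 had a mean log2 signal of 7 or more, where 0.817% of all genes were higher. The marker lists were written with earlier results of these data known, so that such shares are a description only. Of 12 macrophage markers 11 were above 0, with a median of 0.20 and mean signals of 6.93 and 6.74 on the PGC-1β(i)skm-/- and control arrays. C1qa (0.37), C1qb (0.36), Mrc1 (0.31), C1qc (0.27) and Csf1r (0.27) were higher, 41.7% of the list. Mast cell markers, 5 of 7 above 0 with a median of 0.09, averaged 5.85 and 5.67 on the PGC-1β(i)skm-/- and control arrays, from -0.12 for Hdc and -0.03 for Cma1 to 0.41 for Mcpt4 and 0.61 for Cpa3. The median was 0.11 for 6 satellite cell markers, 0.01 for 9 markers of smooth muscle cells and pericytes and 0.01 for the 12 myofibre markers. All 6 neutrophil markers had a mean signal under 6, with a median difference of -0.07. The part of these cells in the signals of the early response genes was not tested, and in whole muscle more cells of a type and more RNA per cell cannot be told apart.

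**Figure D5:**
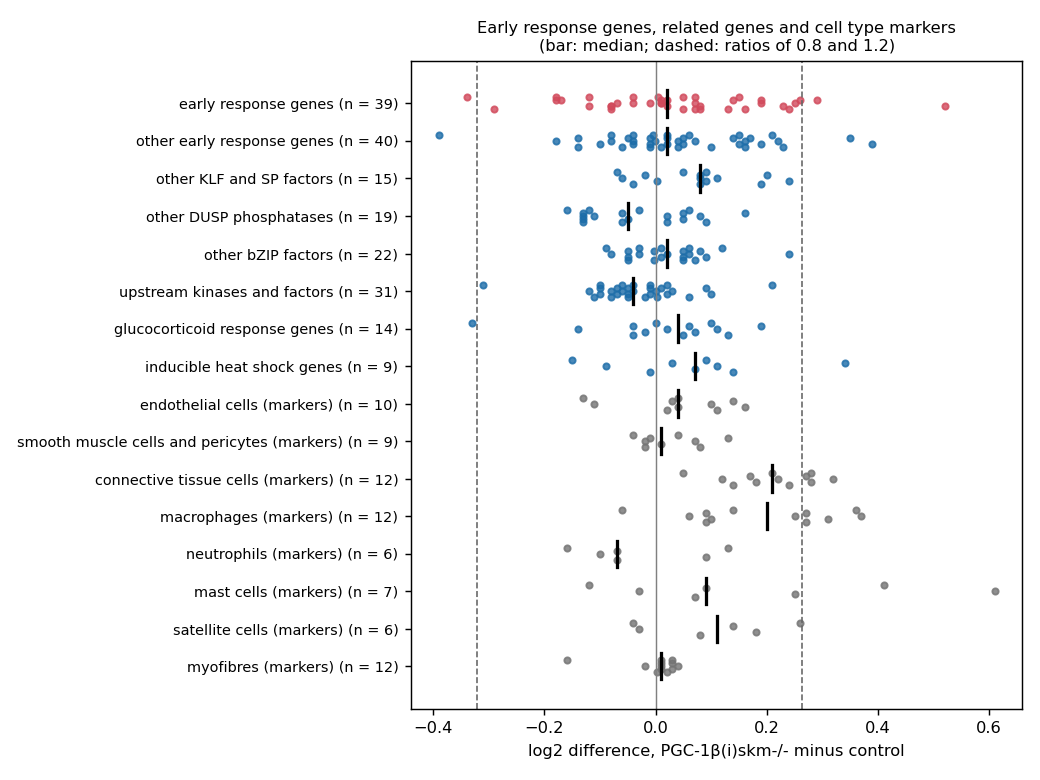
Difference of mutant minus control log2 signal (horizontal axis) for each gene in the set of 39 (red), in lists of related genes (blue) and in markers of cell types (grey), where a black bar is the median of a list and ratios of 0.8 and 1.2 are dashed. The medians of connective tissue and macrophage markers, 0.21 and 0.20, lie to the right of that of the 39 genes, 0.02.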

How the data were processed

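The authors started from 150 ng RNA per pool, used Mouse Gene 1.0 ST arrays (Affymetrix) and deposited log2 signals per probe set made by RMA, a method of background subtraction, quantile normalization and median polish that the submitters' processing notes also name. Quantile normalization would hide a change of all genes together, and RMA compresses differences of dim probe sets. Of 35556 probe sets, 21789 had 1 gene symbol in the platform annotation, 1621 with several were left out, and 12146 were unnamed here. Names were updated through Entrez IDs with the RefSeq table of GRCm38.p6, mitochondrial genes were left out, and of several probe sets the brightest on average stood for a gene, which left 19936 genes. No filter on signal was applied. Differences were computed with Python 3.11.15, pandas 2.3.3, numpy 2.4.6 and statsmodels 0.14.6, and the calculation was tested on simulated data. There was no test, because each genotype has 1 array. The thresholds follow the methods of the study. All members were named, with the 2 genes at either end of each list of related genes, and those past a threshold in these and the marker lists. Hdc and Cma1 were added after their values were seen. Members and lists were chosen with earlier results of these data known. Alternatives were the mean of the probe sets, probe sets of several genes, signal filters at 6 and 7, subtraction of the median or of a loess curve with a span of 0.3, and thresholds of 1/1.2 and 1.5-fold.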

Additional observations from a re-analysis of the deposited data

How the results depend on the processing

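Klf4 and Dusp1 kept a ratio of 1.2 or more under the mean of the probe sets, probe sets of several genes, a signal filter at 6, and subtraction of the median or of a loess curve on signal. The mean of the probe sets and the filter at 6 could not change either ratio. Both genes have 1 probe set and a mean signal above 6. With the loess curve subtracted, 4 early response genes were higher, Jund and Btg2 (ratio 1.21 each) joining Klf4 and Dusp1. The number lower was 0, since Gadd45g moved inside the threshold. Jund and Btg2 had lain just under the threshold, at 1.19 and 1.1995, and the count over all genes with this curve is not given here. A filter at a mean signal of 7 left 21 genes, with 14 above 0 (66.7%). Only 1 of these was higher (4.76%), because Klf4 lies just under the filter. At a ratio of 1/1.2 or less, 2 of all 39 were lower, Gadd45g and Socs2, and at 1.5-fold 0 were higher and 0 lower. The filter at 7 also moved the median of the DUSP phosphatases to 0.12 and that of the IER proteins with Csrnp1 and Myc to 0.19, with 2 and 1 genes left. The KLF factors, without Klf4, then no longer had the highest median. With the filter at 6, 155 of 11493 genes in all were higher (1.35%) and 5391 were above 0 (46.9%). With that at 7, 67 of 8205 genes were higher (0.817%), 65 lower (0.792%) and 3573 above 0 (43.5%). Of all 19936 genes, 336 were lower at 1/1.2 or less, and at 1.5-fold 4 were higher and 8 lower. Of 211 values of single early response genes under alternatives, all moved by less than 0.12, the standard deviation over genes, and 4 changed sign, those of Fosb, Ier3, Rgs2 and Arc with the loess curve. Many of these could not move, because 37 of the 39 genes have 1 probe set and a signal filter leaves a value unchanged. Subtraction of the median, -0.00055, could hardly change them either. No paired analysis was possible because each genotype has 1 array, which also leaves no replicate to leave out.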
